A study of Mus musculus with 16 samples.

Results

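The 9 genes described here carry the signal of leukaemia inhibitory factor (LIF) into the nucleus of mouse embryonic stem (ES) cells or are early targets of it: Lifr, Il6st, Stat3, Socs3, Bcl3, Junb, Pim1, Pim3 and Gbx2. They were picked by symbol from the 27179 genes of the deposited count table. All 9 were among the 14288 genes that passed the filter on low counts and were tested.

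The samples belong to a study of amino acid intake and pluripotent cell states. ES cells grown on gelatin in serum with LIF had been adapted over 3 passages to either of 2 media, and were then used for at most 9 passages. The medium labelled serum/LIF+2i held 10% serum, LIF at 1000 U/ml, and 2i, which is 3 µM CHIR99021 (a GSK3 inhibitor) with 1 µM PD0325901 (a MEK inhibitor). The medium labelled 2i/LIF held LIF and the same inhibitors without serum, in N2B27, a defined base. Exit from naive pluripotency was started by a change to medium with neither LIF nor 2i. Cells from 2i/LIF kept their own base medium, whereas cells from serum/LIF+2i lost serum too and went into N2B27 made with glutamine-free DMEM and 2 mM added glutamine. RNA was taken at 0, 12, 24 and 40 h in each medium, with 2 libraries per group and 16 in all. For cells from serum/LIF+2i the protocol lists only 24 and 40 h, but 2 libraries are titled 12 h, and their title was followed. LIF and both inhibitors left in the same step, so an effect of LIF removal cannot be told apart from that of 2i removal or, after serum/LIF+2i, of serum removal and the change of base. The labels do not name the cell line. They do not say whether the 2 libraries of a group came from separate cultures. The p-values thus measure the spread between these libraries, pooled in part over genes, which may be technical.

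LIF binds the LIF receptor (Lifr), which pairs with gp130 (Il6st), the chain shared by the interleukin 6 family of cytokines. Janus kinases on this pair phosphorylate STAT3, which dimerizes, enters the nucleus and binds DNA at sites of the form TTCNNNGAA. In mouse ES cells this pathway helps to keep the naive state, and Socs3, a feedback inhibitor that binds gp130 and the kinases, is a usual readout of its activity.

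Total counts per library ran from 5931381 to 11142744, and between 16393 and 18392 genes had a count. Genes of ribosomal RNA took 0.429% to 1.72% of the counts, the most in serum/LIF+2i 24 h replicate 1. Replicates correlated with r of 0.991 to 0.995 across genes (log2 CPM), and no pair agreed within sampling noise. Levels are given as CPM, the count of a gene scaled to a common library total after TMM normalization (trimmed mean of M values). The 5 markers of pluripotent cells (Pou5f1, Nanog, Sox2, Zfp42 and Esrrb) summed to between 2870 and 3280 CPM in the libraries at 0 h and to between 887 and 901 CPM at 40 h. Summed markers of other cell types were lower in every library: 2.54 to 16.2 CPM for 6 of primitive endoderm, 4.48 to 44.2 for 6 of trophoblast, 1.92 to 22.3 for 7 of feeder fibroblasts and 1.22 to 61.4 for 5 of neural progenitors. Of the feeder markers 2 to 4 were at 0 in every group, and of the trophoblast markers up to 2. In both media the neural, primitive endoderm and feeder sums were highest at 40 h, when the latter pair reached 10.5 to 16.2 and 10.5 to 22.3 CPM, and the trophoblast sum was highest at 0 h. Their part in the results was not tested. In bulk RNA, fewer cells that express a gene and less RNA per cell cannot be told apart.

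During exit most of the 9 genes fell, at different times and to different degrees. Socs3 and Bcl3 lost most of their RNA within 12 h, Stat3 and Il6st were lower than at the start at every time, Lifr stayed within 1.11-fold of its start to 24 h and then dropped, Pim1 dipped and came back, and Gbx2 rose after serum/LIF+2i. A gene is called changed here at an adjusted p under 0.05 in edgeR's quasi-likelihood test over all 14288 genes. From 2i/LIF, 1 gene was called higher and 8 lower at 12 h, 0 higher and 7 lower at 24 h, and 1 higher and 8 lower at 40 h. The calls among all genes were 44.7%, 58.8% and 68.8% at these times. From serum/LIF+2i, 1 was called higher and 6 lower at 12 h, 1 and 8 at 24 h, and 1 and 7 at 40 h, beside 51.2%, 64.4% and 70.5% of all genes. With so many genes called, the number of calls says little about these 9. Direction and size follow as a description only, since earlier results of these data were known when the 9 genes were chosen. Their median log2 fold change was -0.83, -1.27 and -1.88 from 2i/LIF and -0.99, -1.18 and -1.73 from serum/LIF+2i, whereas the median of all genes lay within 0.01 of 0 in these 6 comparisons. The 3 times of a medium share their 0 h libraries and are not independent.

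**Figure D1:**
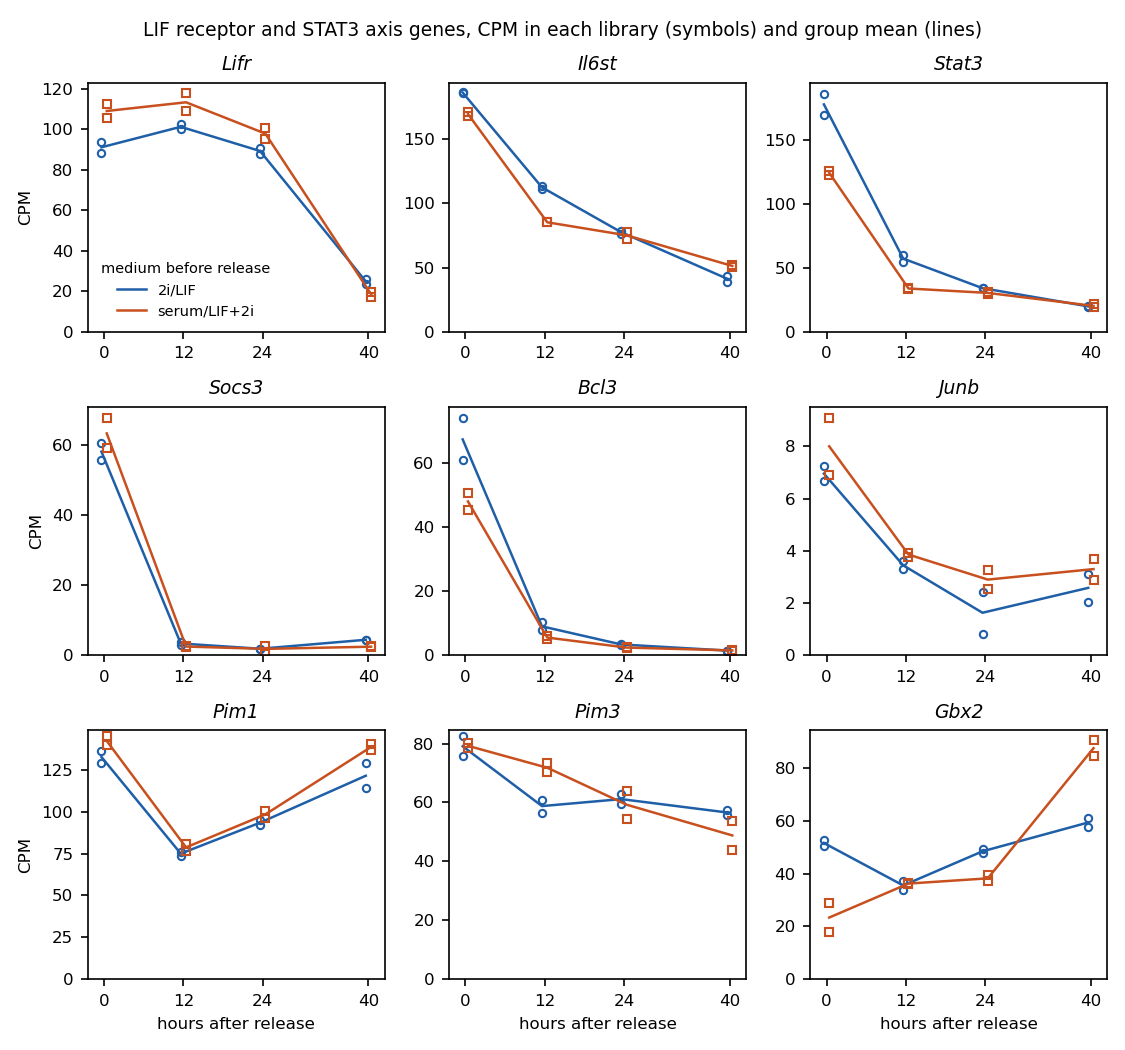
CPM (linear axis from 0) of the 9 genes against hours after release, with a symbol for each of the 16 libraries and a line through the mean of the 2 libraries of a group; blue is 2i/LIF and orange is serum/LIF+2i. Socs3 falls from between 55.5 and 67.4 CPM at 0 h to under 5 at all later times, Lifr has its largest drop between 24 and 40 h, and Gbx2 in serum/LIF+2i climbs from 23.4 to 87.7 CPM on average.

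Lifr, the chain that binds LIF, lies at chr15:7090610-7197489 on the plus strand (RefSeq annotation, GRCm38.p6, as all positions here). In 2i/LIF it stood at 88.4 and 93.6 CPM at 0 h, 102 and 99.9 at 12 h, 87.9 and 90.4 at 24 h, and 26.2 and 23.4 at 40 h. Serum/LIF+2i libraries held 105 and 113 CPM at 0 h, 109 and 118 at 12 h, 95.01 and 100.5 at 24 h, and 19.7 and 17.3 at 40 h. The 4 libraries at 40 h were the lowest by far and did not overlap any other. Values after ±, here and below, are approximate SEs derived from the F statistic of the test. They can be below sampling noise where a gene fell to few counts. Between 24 and 40 h the log2 fold change of Lifr was -1.84 ± 0.08 in 2i/LIF and -2.40 ± 0.08 after serum/LIF+2i (edgeR adjusted p of 2.57e-41 and 3.33e-56). In these steps 46.7% and 50.5% of all genes were called. Before 24 h the changes of Lifr were smaller. From 12 to 24 h Lifr fell by 0.18 ± 0.06 in 2i/LIF and by 0.22 ± 0.06 after serum/LIF+2i, without overlap (edgeR adjusted p of 0.0175 and 0.000857). The first was not called under DESeq2 (adjusted p = 0.101) or without replicate 1 at 12 h or at 24 h (adjusted p of 0.102 and 0.129), nor the second without replicate 2 at 12 h (adjusted p = 0.087). Against 0 h the values at these times were close to 0. At 12 h the log2 fold change was 0.15 ± 0.06 in 2i/LIF (edgeR adjusted p = 0.0495), a call that was lost without any 1 of the 4 libraries compared (adjusted p from 0.0533 to 0.287) and under DESeq2 (adjusted p = 0.166), and 0.06 ± 0.06 in serum/LIF+2i, which was not called. At 24 h it was -0.03 ± 0.07 and not called in 2i/LIF, and -0.15 ± 0.06 after serum/LIF+2i (edgeR adjusted p = 0.0183), which was lost without replicate 2 at 0 h (-0.09, adjusted p = 0.279) or replicate 1 at 24 h (-0.12, adjusted p = 0.166). It was also lost under DESeq2 (adjusted p = 0.135), with library size only (0.0654) and with no filter beyond 1 count (0.0523).

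Il6st, which encodes gp130, is at chr13:112464070-112506860 on the plus strand. Its 2i/LIF libraries held 186 and 187 CPM at 0 h, 111 and 114 at 12 h, 78.9 and 76.1 at 24 h, and 39.1 and 43.5 at 40 h. Those from serum/LIF+2i held 172 and 168 CPM at 0 h, 85.2 and 85.4 at 12 h, 77.9 and 72.4 at 24 h, and 52.2 and 50.2 at 40 h. Within each medium no time overlapped another. The log2 fold changes at 12, 24 and 40 h were -0.73 ± 0.05, -1.27 ± 0.06 and -2.18 ± 0.06 in 2i/LIF, with edgeR adjusted p of 3.47e-24, 3.81e-41 and 1.99e-60. The serum/LIF+2i values were -0.99 ± 0.06, -1.18 ± 0.06 and -1.73 ± 0.06, with edgeR adjusted p of 8.81e-34, 1.45e-40 and 3.24e-55. The 2 chains of the receptor thus fell at different times: by 12 h Il6st was 1.66-fold lower in 2i/LIF, when Lifr was 1.11-fold higher in the fit, and by 40 h they were 4.52-fold and 3.67-fold lower. This difference in timing between the 2 genes was not itself tested.

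Stat3, the transcription factor that the receptor activates, is at chr11:100886806-100939594 on the minus strand. Of its exons, 72 bases overlap those of Stat5a on the opposite strand, and since the sources used here do not give the strand setting of the counting, reads in that stretch could belong to either gene. In 2i/LIF Stat3 went from 187 and 169.8 CPM at 0 h to 54.4 and 60.2 at 12 h, 34.2 and 34.0 at 24 h, and 19.5 and 20.1 at 40 h. Cells from serum/LIF+2i went from 126 and 123 CPM at 0 h to 33.4 and 34.3 at 12 h, 29.9 and 30.9 at 24 h, and 21.3 and 19.1 at 40 h. The 2 media thus began apart and met by 40 h, where their libraries overlapped. Its log2 fold changes at the 3 times were -1.63 ± 0.07, -2.38 ± 0.07 and -3.17 ± 0.08 in 2i/LIF (edgeR adjusted p of 2.1e-46, 4.64e-58 and 1.76e-67). The serum/LIF+2i values were -1.88 ± 0.07, -2.04 ± 0.07 and -2.62 ± 0.08 (edgeR adjusted p of 1.66e-47, 1.66e-51 and 6.86e-61). Most of that fall was in place at 12 h: the step from 12 to 24 h took it down by a further 0.75 ± 0.09 in 2i/LIF (edgeR adjusted p = 1.6e-12), while in serum/LIF+2i the step was -0.16 ± 0.09 and not called (adjusted p = 0.15).

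Socs3, the feedback inhibitor, is at chr11:117966079-117970336 on the minus strand. It is the only 1 of the 9 genes with the STAT site TTCNNNGAA in the 250 bases before a transcription start listed in RefSeq's promoter table. The stretch is shown for this reason, from chr11:117969452-117969616 (minus strand, RefSeq, GRCm38.p6), 5′ to 3′, with the match TTCTTAGAA in capitals. The first base of the match lies 154 bases before the start. The 165 bases shown stop short of the start, at the first exon that GENCODE annotates for the gene in this window. The stretches of Bcl3 and Gbx2 below are cut in the same way, to 235 and 247 bases.
Socs3: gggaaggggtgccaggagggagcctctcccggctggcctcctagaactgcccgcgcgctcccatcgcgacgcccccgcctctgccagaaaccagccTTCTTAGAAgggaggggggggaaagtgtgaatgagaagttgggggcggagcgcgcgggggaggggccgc
The motif was searched in the 11 promoter windows that RefSeq's table lists for the 9 genes, and it is its own reverse complement, so 1 search covers both strands. The listed starts of Socs3, Lifr, Stat3 and Bcl3, and 1 of those of Pim1, lie inside the span annotated for the gene, and sequence before the outer end of these spans was not searched except where a window reaches it. In the same way it was found in 7.02% of 32851 windows of all genes.

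Among the 9 genes Socs3 had the largest fall at 12 and 24 h in both media. In 2i/LIF it stood at 55.5 and 60.5 CPM at 0 h, 2.88 and 3.88 at 12 h, 1.94 and 1.82 at 24 h, and 4.38 and 4.48 at 40 h. Serum/LIF+2i libraries stood at 67.4 and 58.9 CPM at 0 h, 2.57 and 2.45 at 12 h, 2.77 and 0.917 at 24 h, and 2.33 and 2.61 at 40 h. These low values rest on few reads, from 9 to 35 counts per library after 0 h. At 12 h it was 17.1-fold lower in 2i/LIF and 25.1-fold lower in serum/LIF+2i, as log2 fold changes of -4.10 ± 0.16 and -4.65 ± 0.16 (edgeR adjusted p of 4.39e-46 and 1.04e-51). At 24 h the log2 fold changes were -4.93 ± 0.19 and -5.12 ± 0.17, with edgeR adjusted p of 2.32e-48 and 6.93e-55, and the latter ran from -6.08 without the first to -4.51 without the second replicate of that group. At 40 h they were -3.71 ± 0.15 and -4.67 ± 0.15, with edgeR adjusted p of 1.62e-45 and 1.17e-55. From 24 to 40 h Socs3 rose again in 2i/LIF, with a log2 fold change of 1.23 ± 0.33 (edgeR adjusted p = 0.00114), to a level 13.1-fold below that at 0 h. After serum/LIF+2i the same step was 0.45 ± 0.33 and was not called (adjusted p = 0.258), although it reached 1.41 (adjusted p = 0.00982) without replicate 1 at 24 h.

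Bcl3, which encodes an atypical member of the IκB family that acts in the nucleus, is at chr7:19808462-19822824 on the minus strand, and 161 of its exon bases overlap those of the antisense gene Gm16175. Its promoter stretch at chr7:19822771-19823005 (minus strand, 5′ to 3′, RefSeq, GRCm38.p6) is shown for comparison with that of Socs3, since it held neither this motif nor the longer form TTCNNNNGAA, and has no letters in capitals.
Bcl3: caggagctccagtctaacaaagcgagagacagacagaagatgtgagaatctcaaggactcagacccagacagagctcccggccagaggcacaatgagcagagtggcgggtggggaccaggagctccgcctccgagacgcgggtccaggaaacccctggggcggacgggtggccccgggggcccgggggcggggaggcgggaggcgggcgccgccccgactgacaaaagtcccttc
The absence of these letters from this window says nothing of sites elsewhere.

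Bcl3 had the widest range of the 9 genes, 45-fold between its highest and lowest group means. The 2i/LIF libraries gave 60.8 and 74.0 CPM at 0 h, 7.81 and 10.3 at 12 h, 3.61 and 3.19 at 24 h, and 1.503 and 1.495 at 40 h. Those of serum/LIF+2i gave 50.7 and 45.4 CPM at 0 h, 5.14 and 5.96 at 12 h, 2.32 and 2.55 at 24 h, and 1.72 and 1.36 at 40 h. Each time in a medium was below the one before it, with no overlap. The log2 fold changes at 12, 24 and 40 h were -2.90 ± 0.13, -4.31 ± 0.16 and -5.48 ± 0.18 in 2i/LIF, with edgeR adjusted p of 7.8e-43, 2.43e-50 and 2.12e-55. After serum/LIF+2i they were -3.10 ± 0.14, -4.29 ± 0.16 and -4.94 ± 0.17, with edgeR adjusted p of 6.84e-41, 8.17e-49 and 4.96e-53. Unlike Socs3, Bcl3 fell again from 24 to 40 h in 2i/LIF, by 1.18 ± 0.36 on the log2 scale (edgeR adjusted p = 0.00466), a call that was lost without replicate 1 at 24 h (-1.09, adjusted p = 0.0504).

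Junb, a subunit of the AP-1 transcription factor, is at chr8:84976909-84978748 on the minus strand, and 173 of its exon bases overlap those of Prdx2 on the other strand. By RPKM, the level per transcript length, it was the lowest of the 9 at 0 h in both media, and it stayed under 10 CPM in every library. The 2i/LIF libraries gave 7.24 and 6.68 CPM at 0 h, 3.29 and 3.61 at 12 h, 0.833 and 2.43 at 24 h, and 3.13 and 2.04 at 40 h. Those from serum/LIF+2i gave 9.11 and 6.90 CPM at 0 h, 3.78 and 3.94 at 12 h, 2.54 and 3.26 at 24 h, and 3.71 and 2.90 at 40 h. All libraries at 0 h were above all later ones. The later times overlapped in part. Junb was called lower at each time, with log2 fold changes of -1.01 ± 0.28, -2.11 ± 0.33 and -1.41 ± 0.29 in 2i/LIF (edgeR adjusted p of 0.00133, 2.05e-08 and 8.85e-06) and of -1.05 ± 0.25, -1.45 ± 0.26 and -1.26 ± 0.24 in serum/LIF+2i (0.000164, 3.33e-07 and 1.75e-06). The value at 24 h in 2i/LIF ran from -3.04 without replicate 2 to -1.51 without replicate 1 of that group, where 1 library held 6 counts and the other 16.

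Pim1, a serine/threonine kinase that promotes survival and growth, is at chr17:29490785-29496111 on the plus strand and shares 488 exon bases with the antisense gene Gm26885. In 2i/LIF it was at 129 and 136 CPM at 0 h, 73.7 and 76.2 at 12 h, 91.8 and 95.1 at 24 h, and 114 and 129 at 40 h. Cells from serum/LIF+2i had 139.6 and 145 CPM at 0 h, 76.4 and 81.0 at 12 h, 96.2 and 100.6 at 24 h, and 137 and 141 at 40 h. The lowest point was thus 12 h in both media. Pim1 fell by 0.83 ± 0.06 and 0.85 ± 0.06 on the log2 scale over these 12 h (edgeR adjusted p of 1.61e-23 and 2.09e-26). It then rose in both later steps, by 0.32 ± 0.07 and 0.38 ± 0.06 in 2i/LIF (edgeR adjusted p of 2.92e-05 and 3.87e-08) and by 0.32 ± 0.06 and 0.49 ± 0.05 in serum/LIF+2i (2.08e-06 and 6.07e-15). At 40 h it differed from 0 h by -0.13 ± 0.06 in 2i/LIF (edgeR adjusted p = 0.0348), which was not called under 6 of the 7 other ways of fitting or scaling and was lost without replicate 2 at 0 h (-0.09) or replicate 1 at 40 h (-0.04). The serum/LIF+2i difference at 40 h was -0.04 (95% interval -0.14 to 0.07) and was not called.

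Pim3, a kinase of the same family, is at chr15:88862194-88865726 on the plus strand. The 2i/LIF libraries held 82.6 and 75.6 CPM at 0 h, 56.6 and 61.0 at 12 h, 62.9 and 59.4 at 24 h, and 55.6 and 57.6 at 40 h. The serum/LIF+2i libraries held 80.1 and 78.4 CPM at 0 h, 73.3 and 70.4 at 12 h, 54.5 and 64.0 at 24 h, and 53.7 and 43.9 at 40 h. It had the narrowest range of the 9, with group means that differed at most 1.62-fold. In 2i/LIF it fell by 0.43 ± 0.08 on the log2 scale at 12 h and was 0.37 ± 0.08 and 0.48 ± 0.08 below the start at 24 and 40 h (edgeR adjusted p of 2.52e-06, 3.34e-05 and 5.8e-08). Its change at 12 h after serum/LIF+2i was -0.15 ± 0.07 and was not called (adjusted p = 0.0872), and by 24 and 40 h it had fallen by 0.42 ± 0.07 and 0.69 ± 0.07 (edgeR adjusted p of 4.84e-07 and 1.32e-14).

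Gbx2, a homeobox transcription factor known in ES cells as a target of STAT3, is at chr1:89927962-89931176 on the minus strand. The non-coding gene D130058E05Rik covers 946 of its exon bases on the other strand, so its counts are less certain than those of the other members. Its promoter stretch at chr1:89931180-89931426 (minus strand, 5′ to 3′, RefSeq, GRCm38.p6) is shown because it alone among the 9 genes held the longer form TTCNNNNGAA, also its own reverse complement. The match TTCCCCTGAA, in capitals, begins 111 bases before the start.
Gbx2: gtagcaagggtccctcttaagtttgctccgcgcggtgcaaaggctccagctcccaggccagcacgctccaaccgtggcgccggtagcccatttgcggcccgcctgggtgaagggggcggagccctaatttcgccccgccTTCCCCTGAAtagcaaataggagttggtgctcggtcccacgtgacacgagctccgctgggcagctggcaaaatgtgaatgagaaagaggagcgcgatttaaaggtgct
This form was found in 5.85% of the windows of all genes.

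Gbx2 was the 1 gene of the 9 called in opposite directions in the 2 media, at 12 h. In 2i/LIF it was at 52.7 and 50.6 CPM at 0 h, 37.3 and 33.8 at 12 h, 49.3 and 47.7 at 24 h, and 57.6 and 61.3 at 40 h. Serum/LIF+2i libraries had 28.8 and 17.9 CPM at 0 h, 36.2 and 36.3 at 12 h, 37.1 and 39.4 at 24 h, and 90.8 and 84.6 at 40 h. The former dipped at 12 h and returned, and the latter had its lowest libraries at 0 h and its highest at 40 h. In 2i/LIF Gbx2 fell by 0.54 ± 0.10 on the log2 scale at 12 h (edgeR adjusted p = 2.67e-06), was -0.09 ± 0.09 and not called at 24 h, and was 0.20 ± 0.09 higher at 40 h (adjusted p = 0.0366). The last call was lost without replicate 1 or 2 at 0 h (0.23 and 0.17) or replicate 2 at 40 h (0.16), with adjusted p from 0.0701 to 0.191, and under DESeq2 (0.22, adjusted p = 0.103). After serum/LIF+2i Gbx2 rose by 0.63 ± 0.11, 0.71 ± 0.11 and 1.91 ± 0.09 (edgeR adjusted p of 9.23e-07, 1.43e-08 and 4.56e-34). Because the libraries at 0 h differed, the first 2 of these values moved to 1.02 and 1.09 without replicate 1 at 0 h and to 0.34 and 0.42 without replicate 2, and remained called.

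**Figure D2:**
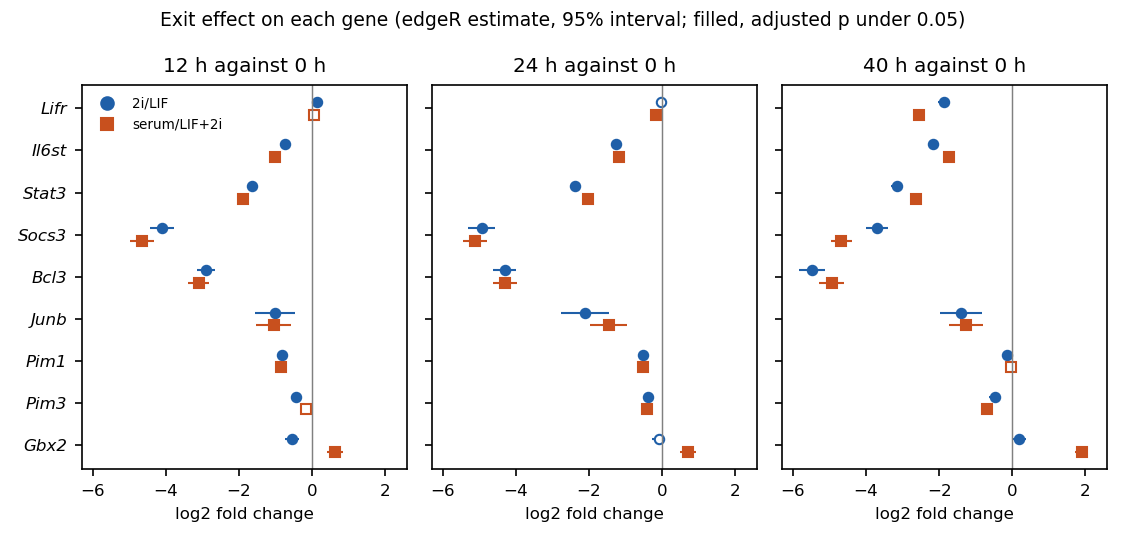
Log2 fold change against 0 h (x axis) of each gene at 12, 24 and 40 h, from edgeR's fit, with 95% intervals; blue circles are 2i/LIF, orange squares are serum/LIF+2i, and open symbols were not called at an adjusted p under 0.05. Socs3 and Bcl3 lie farthest left in every panel, Lifr lies near 0 at 12 and 24 h and far left at 40 h, and Gbx2 lies right of 0 at all times in serum/LIF+2i. The intervals rest on approximate SEs and can be too narrow where a gene fell to few counts.

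Compared per transcript length, as RPKM (the CPM divided by the transcript length in kilobases), the order of the genes at 0 h in 2i/LIF was Pim1 at 75.4, Stat3 39.7, Bcl3 36.7, Il6st 34.2, Pim3 32.7, Gbx2 24.3, Socs3 21.2, Lifr 8.81 and Junb 3.78. At 40 h in the same medium Pim1 was at 69.1 RPKM, Gbx2 at 28.0 and Pim3 at 23.4, while Il6st was at 7.57, Stat3 at 4.42, Lifr at 2.40, Socs3 at 1.62, Junb at 1.41 and Bcl3 at 0.817. The 3 genes that led at 40 h were those with the smallest changes by 40 h in that medium. Per length, Il6st was above Lifr by 34.2 to 8.81 RPKM at 0 h and by 7.57 to 2.40 RPKM at 40 h in 2i/LIF.

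The steps show in which interval each gene moved. From 12 to 24 h, 2 of the 9 genes were called higher and 5 lower in 2i/LIF (35.1% of all genes were called), and 1 higher and 4 lower in serum/LIF+2i (48.4%). From 24 to 40 h, 3 were called higher and 4 lower in 2i/LIF and 2 higher and 4 lower in serum/LIF+2i, beside the 46.7% and 50.5% given for Lifr. Pim1 and Gbx2 were the 2 that rose from 12 to 24 h in 2i/LIF, and Socs3 joined them from 24 to 40 h. In serum/LIF+2i, Gbx2 made most of its rise in the last step, by 1.197 ± 0.076 on the log2 scale (edgeR adjusted p = 2.16e-25), after a step of 0.08 ± 0.09 between 12 and 24 h, which was not called. Pim3 fell in both later steps in serum/LIF+2i, by 0.27 ± 0.07 and 0.28 ± 0.07 (edgeR adjusted p of 0.00096 and 0.000889). The first of these was lost without replicate 1 at 24 h (-0.16, adjusted p = 0.112), and the second without replicate 2 at 24 h (-0.16, adjusted p = 0.168) or at 40 h (-0.16, adjusted p = 0.129). The fall of Junb from 12 to 24 h in 2i/LIF (-1.10 ± 0.38) was not called without replicate 2 at 12 h (-1.04, adjusted p = 0.0809) or replicate 1 at 24 h (-0.50, adjusted p = 0.423). The rise of Gbx2 from 24 to 40 h in 2i/LIF (0.29 ± 0.09) was not called without replicate 2 at 40 h (0.25, adjusted p = 0.0555).

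The media were compared at each time. At 0 h, with LIF and 2i present in both, Gbx2 was 2.21-fold lower in serum/LIF+2i than in 2i/LIF (log2 -1.14 ± 0.11, edgeR adjusted p = 4.07e-15). Stat3 was 1.43-fold lower (-0.51 ± 0.06, edgeR adjusted p = 4.76e-13) and Bcl3 1.41-fold lower (-0.49 ± 0.09, adjusted p = 6.42e-06). Lifr was 1.19-fold higher (0.26 ± 0.06, edgeR adjusted p = 0.000807). Il6st was called lower too (-0.14 ± 0.05, edgeR adjusted p = 0.0313), but not without any 1 of the 4 libraries (from -0.149 to -0.127). This call was also lost under DESeq2 (adjusted p = 0.147). In edgeR it was lost with library size only (adjusted p = 0.0706), with only the groups compared (0.0718) and without ribosomal RNA genes (0.0662). Socs3, the usual readout of the pathway, was not called at 0 h: its difference was 0.12 on the log2 scale, with a 95% interval from -0.06 to 0.31, and its libraries overlapped. That made 1 gene higher and 4 lower at 0 h, beside 33% of all genes called.

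At 12 h after release 2 of the 9 genes were called higher in serum/LIF+2i and 3 lower, beside 30.3% of all genes. Stat3 was 1.69-fold lower (-0.76 ± 0.08, edgeR adjusted p = 2.52e-13), Bcl3 1.62-fold lower (-0.70 ± 0.20, adjusted p = 0.0046) and Il6st 1.32-fold lower (-0.40 ± 0.06, adjusted p = 9.52e-09). The call of Bcl3 was lost without replicate 2 of 2i/LIF (-0.48, adjusted p = 0.179) or replicate 1 of serum/LIF+2i (-0.60, adjusted p = 0.0527). The 2 called higher were Pim3 and Lifr, at 0.29 ± 0.08 and 0.17 ± 0.06 (edgeR adjusted p of 0.00176 and 0.0215). Pim3 was lost without replicate 1 of 2i/LIF (0.23, adjusted p = 0.0604). Lifr was lost without either library of 2i/LIF (0.185 and 0.146) or replicate 2 of serum/LIF+2i (0.10). The call of Lifr was lost under DESeq2 too (0.17, adjusted p = 0.147).

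At 24 h only Gbx2 of the 9 genes was called, at -0.34 ± 0.09 (edgeR adjusted p = 0.00212), beside 31.1% of all genes. Junb stood at 0.86 ± 0.37 (adjusted p = 0.0683) and was called without replicate 2 of 2i/LIF (1.79, adjusted p = 0.01). At 40 h, 3 genes were called higher and 3 lower in serum/LIF+2i, beside 27.3% of all genes. Gbx2 was 1.48-fold higher (0.56 ± 0.07, edgeR adjusted p = 8.11e-10), Il6st 1.24-fold higher (0.32 ± 0.07, adjusted p = 0.000424) and Pim1 1.14-fold higher (0.19 ± 0.05, adjusted p = 0.0024). Socs3 was 1.8-fold lower (-0.84 ± 0.28, edgeR adjusted p = 0.0138), Lifr 1.34-fold lower (-0.42 ± 0.11, adjusted p = 0.00107) and Pim3 1.15-fold lower (-0.21 ± 0.08, adjusted p = 0.0357). Of these 6, only Gbx2 remained called without replicate 1 of 2i/LIF at 40 h. In that run the share of all genes called fell too, from 27.3% to 15.3%. Socs3 was also lost without replicate 2 of 2i/LIF or replicate 1 of serum/LIF+2i, and Pim3 without replicate 2 of either medium (-0.18 and -0.08). The call of Pim3 was lost too under DESeq2 (adjusted p = 0.184) and in edgeR with library size only (adjusted p = 0.0803).

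**Figure D3:**
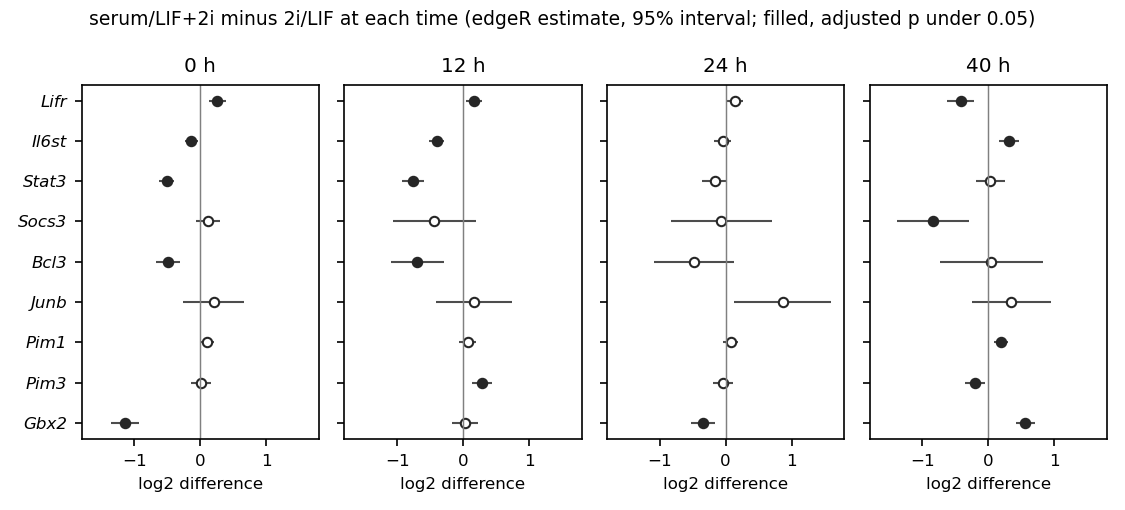
Log2 difference of serum/LIF+2i from 2i/LIF (x axis) for each gene at 0, 12, 24 and 40 h, from edgeR's fit, with 95% intervals; filled points were called at an adjusted p under 0.05. Gbx2 goes from -1.14 at 0 h to 0.56 at 40 h, Stat3 from -0.51 to 0.03 and Lifr from 0.26 to -0.42.

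Whether the exit effect itself differed between the media was tested as the interaction, the exit effect of serum/LIF+2i minus that of 2i/LIF. It was called for 1 gene upward and 1 downward at 12 h (9.2% of all genes were called), 2 upward and 0 downward at 24 h (20.8%), and 3 upward and 2 downward at 40 h (27.6%). Gbx2 had the largest value at each time, 1.17 ± 0.15, 0.80 ± 0.14 and 1.71 ± 0.13 (edgeR adjusted p of 1.9e-09, 6.93e-06 and 1.7e-19), and the middle value fell to 0.52 without serum/LIF+2i 0 h replicate 2. At 40 h the fall of Stat3 was smaller after serum/LIF+2i by 0.54 ± 0.13 (edgeR adjusted p = 0.000302), from a lower start to libraries that overlapped at the end. The fall of Il6st was smaller by 0.45 ± 0.09 (edgeR adjusted p = 2.88e-05). The fall of Lifr was larger there, with an interaction of -0.68 ± 0.12 (edgeR adjusted p = 4.9e-06), as was that of Socs3, with -0.97 ± 0.29 (adjusted p = 0.00691). The last was lost without serum/LIF+2i 40 h replicate 1 (-0.88, adjusted p = 0.0561). Bcl3, Junb, Pim1 and Pim3 had no called interaction at any time. That of Pim3 was called at 12 h with only the groups compared (0.29, adjusted p = 0.0497, against 0.28 and 0.087) and at 40 h without serum/LIF+2i 40 h replicate 1 (-0.37, adjusted p = 0.0153, against -0.21 and 0.139). For Pim1 at 40 h the 95% interval was -0.06 to 0.25.

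The rest of the pathway was described from a list of 62 other genes, of which 52 were tested. At 40 h 17 of them were called higher and 26 lower from 2i/LIF, and 20 higher and 24 lower from serum/LIF+2i, with medians of -0.18 and -0.17 against 0.01 and 0.00 for all genes. Their share of calls, and that of each list below, can be read beside the 68.8% and 70.5% of all genes above. From 2i/LIF 34.1% of all genes were called higher and 34.7% lower, and from serum/LIF+2i 35.3% in each direction.

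Of 11 ligands of gp130 receptors, 5 were tested. At 40 h 2 of these were called higher and 2 lower from 2i/LIF, and 3 higher and 1 lower from serum/LIF+2i. Their median log2 fold changes were 0.43 and 0.92. The ligands called higher fall outside the naming rule given below and are not named. Lif itself was low, at 7.41 and 9.57 CPM at 0 h and 4.76 and 3.81 at 40 h in 2i/LIF, where it fell by 0.99 ± 0.24 on the log2 scale (edgeR adjusted p = 0.000154). The change of Lif after serum/LIF+2i was -0.18 ± 0.23 and was not called. Osm, which encodes oncostatin M, another cytokine of the family, was at 41.7 and 39.3 CPM at 0 h in 2i/LIF and at 20.7 and 18.7 CPM with serum. By 12 h it was at 5.07 and 3.21 CPM and at 1.22 and 1.49 CPM in these media, and at 40 h it was at 0.752 and 0.136 CPM (6 counts and 1) in 2i/LIF. At 40 h each serum/LIF+2i library held 1 count. In the fit the log2 fold change of Osm was -6.42 ± 0.26 in 2i/LIF (edgeR adjusted p = 3.43e-46), between -5.72 without replicate 2 and -8.06 without replicate 1 at 40 h, and it was called in serum/LIF+2i too (adjusted p = 1.72e-39).

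Of 5 other receptor chains, 3 were tested, and they moved in opposite directions. Il6ra, the interleukin 6 receptor, went from 25.0 and 23.4 CPM at 0 h to 1.00 and 1.22 at 40 h in 2i/LIF. After serum/LIF+2i it went from 16.01 and 19.7 to 1.29 and 2.61. It fell by 4.43 ± 0.25 and 3.21 ± 0.21 on the log2 scale (edgeR adjusted p of 1.03e-33 and 3.23e-28). Cntfr, the receptor chain that binds ciliary neurotrophic factor and signals through Lifr and gp130, was at 1.55 and 0.76 CPM at 0 h in 2i/LIF, 31.5 and 34.9 at 12 h, 77.5 and 73.3 at 24 h, and 56.1 and 64.8 at 40 h. It climbed after serum/LIF+2i from 0.882 and 0.588 CPM at 0 h to 178 and 183 at 40 h. The rises at 40 h were 5.72 ± 0.19 and 7.91 ± 0.15 (edgeR adjusted p of 4.58e-55 and 1.75e-81), while Lifr and Il6st fell. The 0 h values rest on 4 to 9 counts per library. Il11ra1, the interleukin 11 receptor, rose by 1.797 ± 0.308 and 1.84 ± 0.30 (edgeR adjusted p of 1.49e-07 and 2.5e-08).

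The 4 Janus kinases were called lower in 2i/LIF at 40 h and 3 of them in serum/LIF+2i, beside 34.7% and 35.3% of all genes. Jak1, the main kinase of gp130 signalling, changed little, by -0.31 ± 0.08 in 2i/LIF (edgeR adjusted p = 0.000259) and by -0.10 ± 0.07 in serum/LIF+2i, which was not called, except without serum/LIF+2i 0 h replicate 1 (-0.22, adjusted p = 0.00996). Jak2 fell by 1.16 ± 0.19 and 0.99 ± 0.17, and Tyk2 by 0.52 ± 0.09 and 0.78 ± 0.09. Jak3, better known from lymphocytes, fell most, by 2.95 ± 0.13 and 2.61 ± 0.13 (edgeR adjusted p of 3.3e-42 and 2.7e-39), from 52.4 and 58.0 to 6.64 and 7.75 CPM in 2i/LIF.

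Of the other STAT genes, Stat5a fell by 1.96 ± 0.28 and 1.22 ± 0.29 on the log2 scale by 40 h in 2i/LIF and after serum/LIF+2i, with the reservation on its overlap with Stat3, which was the more abundant gene. Stat5b fell by 1.16 ± 0.22 in 2i/LIF (edgeR adjusted p = 1.77e-06), while its call in serum/LIF+2i (-0.45 ± 0.20, adjusted p = 0.0384) was lost without replicate 2 at 0 h (-0.16) or replicate 1 at 40 h (-0.20). Stat4 went the other way in 2i/LIF. It went from 6.38 and 5.77 CPM at 0 h to 28.8 and 27.8 at 12 h, and was 0.95 ± 0.20 above the start at 40 h (edgeR adjusted p = 1.77e-05; 0.59 without replicate 2 at 40 h). Stat4 also rose early after serum/LIF+2i, by 1.56 at 12 h and 0.62 at 24 h on the log2 scale, against 2.22 and 2.04 in 2i/LIF. Its change after serum/LIF+2i was -0.26 ± 0.16 at 40 h and was not called (edgeR adjusted p = 0.132). Without replicate 1 at 40 h it was -0.43.

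The 17 brakes of the pathway (SOCS, PIAS and phosphatase genes outside Socs3) moved in both directions. At 40 h 4 were called higher and 6 lower from 2i/LIF, and 8 higher and 6 lower from serum/LIF+2i, with medians of 0.01 and 0.22. Socs2, a SOCS protein known from growth hormone signalling, stood at 64.8 and 63.2 CPM at 0 h and 84.2 and 81.9 at 40 h in 2i/LIF. After serum/LIF+2i it went from 31.4 and 33.1 to 65.3 and 70.7. Its log2 fold changes were 0.38 ± 0.07 and 1.08 ± 0.08 (edgeR adjusted p of 1.69e-06 and 1.72e-24). Socs1, at under 8 CPM in every library, was not called in 2i/LIF at 40 h (0.19 ± 0.37) and rose by 1.43 ± 0.39 in serum/LIF+2i (edgeR adjusted p = 0.000621). The largest falls among genes with at least 5 CPM in a group were those of Ptprd, a receptor phosphatase, by 2.38 ± 0.37 in 2i/LIF and 1.26 ± 0.43 after serum/LIF+2i, and of Pias2, by 1.19 ± 0.05 and 1.18 ± 0.04. The value of Ptprd in serum/LIF+2i was not called without replicate 1 at 0 h (adjusted p = 0.0582). Ptpn6 fell by 0.82 ± 0.11 and 0.86 ± 0.11, and Socs7 fell by 0.50 ± 0.09 in 2i/LIF but was not called after serum/LIF+2i (-0.17 ± 0.08).

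Of 19 other genes known to respond to LIF or STAT3, 17 were tested, and 8 were called higher and 8 lower at 40 h from 2i/LIF, and 7 and 9 from serum/LIF+2i. The naive factors Klf4 and Tfcp2l1 fell furthest. Klf4 went from 323 and 333 CPM to 2.76 and 2.17 in 2i/LIF, and Tfcp2l1 from 2242 and 2123 to 19.3 and 24.9. The log2 fold changes in the 2 media were -7.04 ± 0.10 and -6.95 ± 0.08 for Klf4 and -6.63 ± 0.05 and -6.29 ± 0.05 for Tfcp2l1. At 12 h Klf4 was at 55.8 and 63.0 CPM in 2i/LIF, when Socs3 was at 2.88 and 3.88. Bcl6, a repressor, fell by 3.55 ± 0.41 and 3.61 ± 0.35 from under 10 CPM.

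Pim2, the third kinase of the PIM family, went the other way from Pim3. It stood at 9.82 and 14.0 CPM at 0 h in 2i/LIF, 44.3 and 45.7 at 12 h, 119 and 121 at 24 h, and 718 and 648 at 40 h. Serum/LIF+2i libraries had 11.3 and 9.11 CPM, 34.5 and 35.5, 139 and 147, and 603 and 592. No time overlapped another in either medium. The rises at 40 h were 5.83 ± 0.07 and 5.87 ± 0.07 on the log2 scale (edgeR adjusted p of 1.64e-86 and 1.45e-86). Per length, Pim2 was at 5.83 RPKM at 0 h in 2i/LIF, below Pim1 at 75.4 and Pim3 at 32.7, and at 334 RPKM at 40 h, above Pim1 at 69.1 and Pim3 at 23.4.

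**Figure D4:**
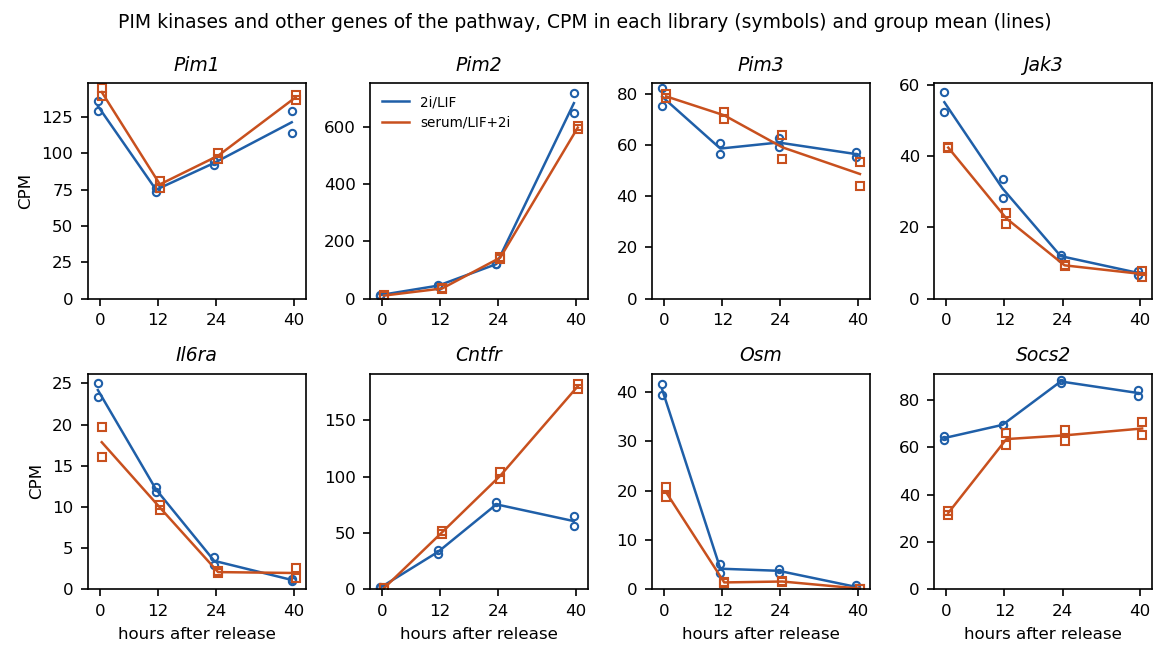
CPM (linear axis from 0) against hours after release for the PIM kinases and for Jak3, Il6ra, Cntfr, Osm and Socs2, with a symbol per library and a line through group means; blue is 2i/LIF and orange is serum/LIF+2i. Pim2 climbs to means of 683 and 597 CPM while Pim1 returns to its start, and Cntfr climbs as Il6ra and Osm fall.

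The patterns of the 9 genes over the 8 group means were compared by Pearson's r of log2 CPM, given as a description over 8 points that share their libraries. Stat3 and Bcl3 were the most alike, with r of 0.991, and Stat3 and Il6st had r of 0.97. Socs3 stood at 0.897 with Bcl3 and 0.876 with Stat3. Lifr had r of 0.239 with Socs3 and -0.822 with Gbx2, and Pim1 had r of 0.0703 with Il6st. Among 3887 genes that averaged 5 CPM or more and spanned at least 1 on the log2 scale, the patterns most like that of Stat3 were those of Plekhm2 (0.997), Glmp (0.994), Mfn1 (0.993), Atp6ap2 (0.991) and Bcl3. Those most like Socs3 were Igsf3 (0.992), Ddah2 (0.987), Sirt4 (0.987), Tirap (0.986) and Ly6g6e (0.986).

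The order of the group means sets these patterns side by side. For Stat3 both media at 0 h led, 2i/LIF at 24 h overlapped serum/LIF+2i at 12 h, and both media overlapped at 40 h. For Socs3 both media overlapped at 0 h and again at 24 h, where the means were lowest. For Lifr the 6 groups from 0 to 24 h lay between 89.2 and 113 CPM, with serum/LIF+2i at 12 and 0 h highest and overlapping, and both groups at 40 h followed without overlap. For Pim3 the groups of 24 h and those of 2i/LIF at 12 and 40 h overlapped their neighbours, so their order is not resolved. The lowest group of Gbx2 was serum/LIF+2i at 0 h and its highest serum/LIF+2i at 40 h, with every other group of both media between them.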

How the data were processed

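Poly(A) RNA of 16 mouse ES cell libraries was sequenced, with 2 libraries in each of 8 groups. The authors deposited 1 table of raw counts per gene, with no normalization. The submitters' processing notes name fastp, STAR, featureCounts and the mm10 build. Versions, the annotation and the strand setting are not given in the sources used here.

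Counts were tested with edgeR 4.0.16 (R 4.3.3) by the quasi-likelihood test. Genes were filtered with filterByExpr (minimum count 10, minimum total 15) and scaled by TMM. A single model of all 16 libraries, with a term per group and 8 residual degrees of freedom, gave 17 comparisons. The test also borrows information on spread from all genes, which adds prior degrees of freedom, so very small p-values do not rest on a gene's own libraries alone. Adjusted p-values are Benjamini-Hochberg values over 14288 genes, called under 0.05. Log2 CPM used a prior count of 2. Total counts of 5931381 to 11142744 mean that 3 counts, taken as the floor, equal 0.259 to 0.517 CPM. The model was tested on simulated data.

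The 9 members and the gene lists were chosen with earlier results of these data known. All 9 members are named. In each of 6 lists of other pathway genes, up to 4 are named, those with the largest change at 40 h in 2i/LIF among genes called there that reach 5 CPM in a group. Lif, Jak1, Jak2, Tyk2, Stat5a, Stat5b, Socs1, Socs2, Il6ra and Pim2 are named whatever their values. A further gene that this rule names is not reported here. For Stat3 and Socs3 the 5 genes with the most similar pattern are named. Alternatives were DESeq2 1.42.0, its size factors in edgeR, no TMM, no filter beyond 1 count, only the groups compared, the replicate number as a block, no ribosomal RNA genes, a minimum log2 fold change of 1, and leaving out each library. Promoters and positions come from RefSeq (GRCm38.p6), and exon overlaps from GENCODE.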

Additional observations from a re-analysis of the deposited data

Results flagged for a closer look

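Of the 9 genes, 5 had an exit effect that differed between the media in at least 1 time, by edgeR's interaction test. Of all genes 9.2%, 20.8% and 27.6% were called at 12, 24 and 40 h. The share of all genes called in at least 1 of these times was not computed. All values are the log2 effect after serum/LIF+2i minus that after 2i/LIF. For Gbx2 the difference was 1.172 (SE 0.149) at 12 h, 0.801 (SE 0.144) at 24 h and 1.706 (SE 0.132) at 40 h, with adjusted p of 1.9e-09, 6.93e-06 and 1.7e-19. Its 2 libraries of serum/LIF+2i at 0 h, at 28.8 and 17.9 CPM, differed more than those of any other group of this gene. For Stat3 the difference was 0.347 (SE 0.111) at 24 h and 0.543 (SE 0.125) at 40 h, with adjusted p of 0.0151 and 0.000302. The first was not called under DESeq2 (0.361, adjusted p = 0.0726) or without 4 of the libraries in turn (2i/LIF 0 h replicate 1, either library of 2i/LIF at 24 h, and serum/LIF+2i 24 h replicate 2; adjusted p from 0.0539 to 0.0825). For Il6st it was -0.264 (SE 0.0776) at 12 h and 0.45 (SE 0.09) at 40 h, with adjusted p of 0.0155 and 2.88e-05, so that the sign changed between the times. The value at 12 h was not called under DESeq2 (-0.258, adjusted p = 0.157) or without 5 of the libraries in turn (2i/LIF 0 h replicate 1, 2i/LIF 12 h replicate 2, serum/LIF+2i 0 h replicate 1 and both of serum/LIF+2i at 12 h; adjusted p from 0.0503 to 0.0773). At 40 h the difference was -0.965 (SE 0.29) for Socs3 and -0.677 (SE 0.124) for Lifr, with adjusted p of 0.00691 and 4.9e-06. The 2 media also differ in serum and in the base of the exit medium, which cannot be told apart here.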

How the results depend on the processing

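No call among the 153 values of the 9 genes (17 comparisons) reversed under any alternative run. The same outcome, called or not called, was reached for 141 with DESeq2, 152 with its size factors in edgeR and 148 with library size only. It was reached for 151 with no filter beyond 1 count, 149 with only the groups compared and 151 without ribosomal RNA genes. Replicate numbers did not pair the libraries (correlations of deviations from -0.023 to 0.0331 over 28 pairs of groups), and with the replicate block the calls were the same in 153 of 153. Leaving out each library kept the outcome, called or not called, of 2387 of 2448 values, with 51 calls lost and 10 gained. Stat3, Socs3, Bcl3 and Junb kept all 144 of their calls against 0 h under these alternatives and with a minimum log2 fold change of 1.

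Under DESeq2 the interaction was called for 1 gene at 12 h and 1 at 24 h, in place of 2 and 2. The media differed at 24 h in 2 genes with library size only and in 2 with only the groups compared, in place of 1. Of all genes 30.6% and 35.3% were called in these runs. Leaving out a library gave 3 to 5 calls between the media at 12 h, 1 to 2 at 24 h and 1 to 6 at 40 h. It gave 1 to 2 interactions at 12 h and 1 to 2 at 24 h. The share of all genes moved as well. Without 2i/LIF replicate 1 of the time compared it was 21.1%, 21.1% and 15.3% between the media at 12, 24 and 40 h. Without 2i/LIF 0 h replicate 1 it was 6.34% and 16.4% for the interactions at 12 and 24 h. With a minimum log2 fold change of 1, fewer values could pass. At 12 h against 0 h 4 genes passed in either medium, beside 12.3% (2i/LIF) and 14.9% (serum/LIF+2i) of all genes. At 24 h after serum/LIF+2i 5 passed, beside 23.9%. The steps kept 2 and 3 in 2i/LIF (7.17% and 13% of all genes) and 1 and 2 after serum/LIF+2i (11.3% and 12.8%). The media differed in 1 gene at 0 h and in 0 at 12, 24 and 40 h. The shares of all genes there were 5.69%, 4.66%, 4.34% and 3.37%. The interaction passed for 1, 0 and 1, beside 1.62%, 3.7% and 5.62% of all genes. Of all genes DESeq2 called 21.8%, 18.7%, 19.1% and 14.1% between the media and 4.02%, 12.5% and 16.9% for the interaction, over 1.5 times fewer than edgeR. Named pathway genes, by alternatives chosen after seeing the data, kept the outcome, called or not called, of 1082 of 1104 values at 40 h. Junb, Socs3 and Bcl3 rest on 6 to 43 counts per library after 24 h or more, which limits differences between those times.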
